A study of Mus musculus with 9 samples.

Results

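Contractile and actin cytoskeleton genes were followed in bulk RNA-seq of primary skin fibroblasts of newborn mice, all wild type. The set held 37 named genes of the actomyosin apparatus, matched by symbol to Ensembl identifiers, and all 37 were found among the 55401 genes of the table. All named genes were kept whatever their values. Earlier results of these data were known when the names were listed, so the set may not be independent of the data. The 9 libraries fell into 3 groups of 3. In the first, fibroblasts received tumor-conditioned medium (TCM) that had been treated with Cleanascite, a reagent that takes up lipids, and it is called lipid-depleted TCM here. In the second they received TCM itself, which had been left for 24 h on the mouse melanoma line YUMM1.7. The third group was labelled control. DMEM with 10% fetal bovine serum was both the growth medium of all fibroblasts and the medium that the melanoma cells conditioned. The labels do not give the length of the treatment, the medium of the controls, or a group in which control medium met the reagent. The read counts that could be recovered from the deposited values summed to 51015024 to 64965906 per library. Whether replicates came from separate animals or cultures is not stated either, and p-values therefore reflect only how far these libraries spread, which may be technical. The comparisons are given in the order TCM against control, then lipid-depleted TCM against TCM, then lipid-depleted TCM against control.

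Smooth muscle cells and activated fibroblasts (myofibroblasts) contract through filaments of actin and myosin II. Myosin is switched on when a calcium-dependent kinase phosphorylates its regulatory light chain, and the force reaches the matrix through adhesion plaques that link actin to integrins. Many of the genes of this apparatus are transcribed by serum response factor (SRF), which binds a DNA element called the CArG box together with cofactors of the myocardin family. The cofactors MRTF-A and MRTF-B are held in the cytoplasm by monomeric actin, so that actin assembly feeds back on these genes. High smooth muscle actin is the usual mark of a myofibroblast.

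The CArG box carries 2 C, then 6 bases that are each A or T, then 2 G, a pattern that is its own reverse complement, so that 1 search covers both strands. It was searched in the 250 bases before the RefSeq start sites (GRCm38.p6), which were given for 32 of the 37 genes with 40 start sites. Exact boxes lay before 8 of these start sites, of 7 genes, which is 20% of them, against 1.47% of the 32851 start sites in the whole table. Boxes with 1 C or G among the 6 middle bases lay before 7.5% of them and 7.24% of all. The element of TEAD factors (CATTCC, either strand) lay before 30% and 12.6%, and that of SMAD factors (CAGACA, either strand) before 15% and 17.1%. A match describes these letters only and is no evidence of binding. The boxes are shown with their flanks because the genes that carry them differed in how they moved, as given further on. Capitals mark the box, and each line gives the gene, the position counted back from the start site, and the bases 5′ to 3′ on the gene's strand.
Acta2, 34 to 25 before the start: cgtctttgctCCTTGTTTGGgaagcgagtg
Acta2, 84 to 75 before the start: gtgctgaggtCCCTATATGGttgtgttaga
Cnn2, 56 to 47 before the start: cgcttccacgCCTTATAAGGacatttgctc
Fhl1, 102 to 93 before the start: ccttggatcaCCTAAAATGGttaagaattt
Fhl2, 31 to 22 before the start: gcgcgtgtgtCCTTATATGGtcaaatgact
Fhl2, 96 to 87 before the start: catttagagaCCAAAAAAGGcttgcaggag
Myl6, 50 to 41 before the start: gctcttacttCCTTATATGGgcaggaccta
Myl9, 161 to 152 before the start: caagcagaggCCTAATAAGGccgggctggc
Myl9, 99 to 90 before the start: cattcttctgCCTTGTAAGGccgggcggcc
Pdlim3, 100 to 91 before the start: tctctcacttCCAAAGTTGGagctctcctt
Srf, 62 to 53 before the start: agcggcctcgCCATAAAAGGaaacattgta
Srf, 82 to 73 before the start: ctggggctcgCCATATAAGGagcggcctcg
Vcl, 227 to 218 before the start: cccactatgcCCTTATAAGGagcgccccgc

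Both boxes of Acta2, the nearer one of Myl9 and that of Pdlim3 have 1 G or C in the middle, and the other boxes shown are exact. The Acta2 pair lies at chr19:34255398-34255407 and chr19:34255448-34255457. The Fhl2 boxes lie before different start sites, at chr1:43163983-43163992 and chr1:43196848-43196857. Annotated exons, of any gene on either strand, cover part or all of some of the stretches searched. They cover all 250 bases for Myl6, 217 for Acta2, 87 for Fhl1 and 44 for Myl9. For the Fhl2 start with the box at 96 to 87 they cover 223, and for the rest 0 to 26. Longer stretches are shown for Vcl, Srf and Fhl2, whose transcripts behaved in 3 different ways in lipid-depleted TCM: Vcl lay between its TCM and control levels, Srf at its TCM level, and Fhl2 above control. Each is the 250 bases before a start site, with the boxes in capitals.
Vcl, chr14:20929148-20929397, plus strand: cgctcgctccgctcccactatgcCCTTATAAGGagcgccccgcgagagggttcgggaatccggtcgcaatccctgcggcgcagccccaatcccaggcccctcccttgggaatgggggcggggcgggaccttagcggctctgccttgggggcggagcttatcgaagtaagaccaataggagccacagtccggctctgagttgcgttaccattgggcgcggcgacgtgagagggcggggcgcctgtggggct
Srf, chr17:46556163-46556412, minus strand: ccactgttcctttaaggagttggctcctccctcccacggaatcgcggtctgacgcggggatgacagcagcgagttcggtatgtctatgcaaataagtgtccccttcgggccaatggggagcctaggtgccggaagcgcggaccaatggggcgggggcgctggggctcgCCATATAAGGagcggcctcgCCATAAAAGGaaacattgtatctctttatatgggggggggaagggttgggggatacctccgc
Fhl2, chr1:43163962-43164211, minus strand: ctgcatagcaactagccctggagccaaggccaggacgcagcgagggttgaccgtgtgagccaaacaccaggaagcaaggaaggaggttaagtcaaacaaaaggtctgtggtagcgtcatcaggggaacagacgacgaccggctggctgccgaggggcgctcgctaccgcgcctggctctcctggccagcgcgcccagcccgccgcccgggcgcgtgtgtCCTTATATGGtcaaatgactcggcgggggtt

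In TCM against control, the comparison that shows the response to medium from melanoma cells, nearly the whole set fell. Values are the deposited normalized counts, which are read counts divided by a size factor per library, and changes are differences of log2(normalized count + 1). All 37 genes passed the filter of at least 10 normalized counts in at least 3 libraries. Tested with limma over 16950 genes and called at an adjusted p below 0.05, 34 fell, 2 rose and 1 was not called. Of all genes tested, 31% were called lower and 29.5% higher. Genes called higher made up 48.7% of all calls, and 66.4% when every library was scaled to the same total. The median change of the set was -1.33, against -0.002 for all genes, and 26 of the 37 fell at least 2-fold, against 8.24% of all genes. For 35 of the 37 genes no TCM library overlapped the control libraries, against 63.9% of all genes. The genes of the set together held 1.34% to 1.48% of normalized counts in TCM libraries and 2.89% to 2.93% in control libraries. In bulk RNA, fewer contractile cells and less contractile RNA per cell cannot be told apart.

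Lipid-depleted TCM against TCM asks which of these effects differ once the medium has been treated with the reagent. Removal of lipids and other effects of the reagent cannot be told apart, since no group with reagent-treated control medium is given. Here 24 genes of the set rose, 3 fell and 10 were not called, while 22.7% of all genes were called higher and 22.5% lower. The median change of the set was 0.35 (all genes 0.01), and 2 genes, Myh11 and Acta2, rose at least 2-fold, against 3.12% of all genes. The libraries did not overlap for 27 genes of the set, against 52.4% of all genes. Without TCM replicate 1, 23 genes were higher and 7 lower. That library was the lowest of the 3 TCM libraries for 25 of the 37 genes, and the median coefficient of variation over the 37 genes was 3.16% among lipid-depleted TCM libraries, 8.39% among TCM libraries and 2.34% among control libraries. With TCM replicate 1 left out, the genes added to those called lower were Smtn, Tpm4, Pdlim7 and Srf. Lipid-depleted TCM against control asks what remained. In that comparison 33 genes were lower, 2 higher and 2 not called (all genes 30.6% lower and 29.4% higher), with a median of -0.94 (all genes 0.002). At least 2-fold falls numbered 18, against 7.9% of all genes, and 36 genes of the set did not overlap, against 71.2%. The comparisons share libraries, so their values are set side by side and not correlated.

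**Figure D1:**
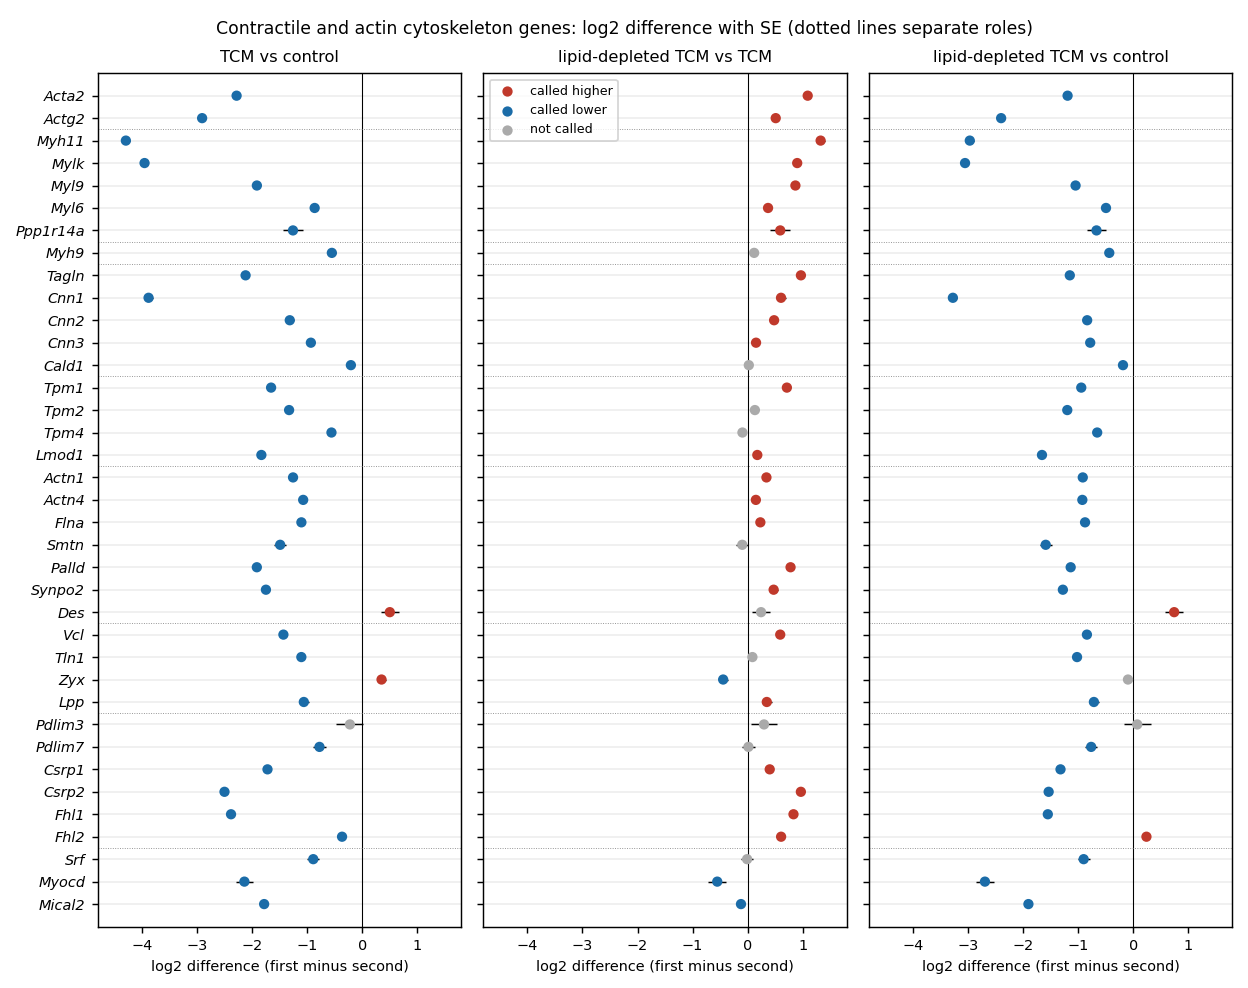
Log2 differences (x axis, first group minus second, with SE) of the 37 genes (y axis, grouped by role) in the 3 comparisons. In TCM against control 34 points are called lower, whereas in lipid-depleted TCM against TCM 24 are called higher and the 3 regulators at the bottom lie at or below 0.

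Both smooth muscle actins fell in TCM against control, and in lipid-depleted TCM they stood between the other groups. Acta2, alpha smooth muscle actin (ENSMUSG00000035783.9, chromosome 19, 34241090 to 34255590, minus strand, GRCm38, the assembly also called mm10), had 127006, 126923 and 128944 normalized counts in lipid-depleted TCM, 58311, 56021 and 66174 in TCM, and 290355, 289077 and 295263 in control. Every control library lay above every lipid-depleted TCM library, and those above every TCM library. Acta2 was 4.86-fold lower in TCM than in control (log2 -2.28, SE 0.06, limma adjusted p = 6.1e-12), 2.13-fold higher in lipid-depleted TCM than in TCM (adjusted p = 1.6e-08) and 2.28-fold lower in lipid-depleted TCM than in control (adjusted p = 2.0e-09). Actg2, gamma smooth muscle actin (ENSMUSG00000059430.14, chromosome 6, 83512905 to 83536265, minus strand), had 5323, 5184 and 5599 normalized counts in lipid-depleted TCM, 3654, 3544 and 4145 in TCM, and 28208, 28106 and 28540.2 in control. The groups were ordered as for Acta2. Actg2 fell by 2.91 on the log2 scale in TCM against control and rose in lipid-depleted TCM against TCM by 0.51 (limma adjusted p = 6.7e-13 and 1.2e-05).

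Levels of different genes were compared per kb of annotated exon, with the exons of all transcripts of a gene merged. On that scale Acta2 was at 58117 ± 521 normalized counts per kb in lipid-depleted TCM, 27399 ± 2425 in TCM and 132771 ± 1487 in control (SD, n = 3). Actb, the cytoplasmic beta actin that all cells make, was at 41595 ± 613, 34236 ± 2543 and 63563 ± 830.0 in the same groups. Acta2 thus stood above Actb in lipid-depleted TCM and control libraries and below it in TCM libraries. Acta2 and Actg2 together made up 44.7, 44.8 and 44.4% of the 6 actin genes per kb in lipid-depleted TCM, 33.3, 32.6 and 33.3% in TCM and 55.5, 55.2 and 55.6% in control. The differences of -22.4, 11.6 and -10.8 percentage points in the 3 comparisons each came with a two-sided exact permutation p of 0.1, which is the minimum for groups of 3. The cytoplasmic actins moved too: Actb changed by -0.90 and Actg1, cytoplasmic gamma actin, by -1.15 on the log2 scale in TCM against control (limma adjusted p = 1.4e-08 and 1.6e-09). Actin coding sequences are nearly identical, so reads may be split between the genes in a way the sources used here do not give.

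**Figure D2:**
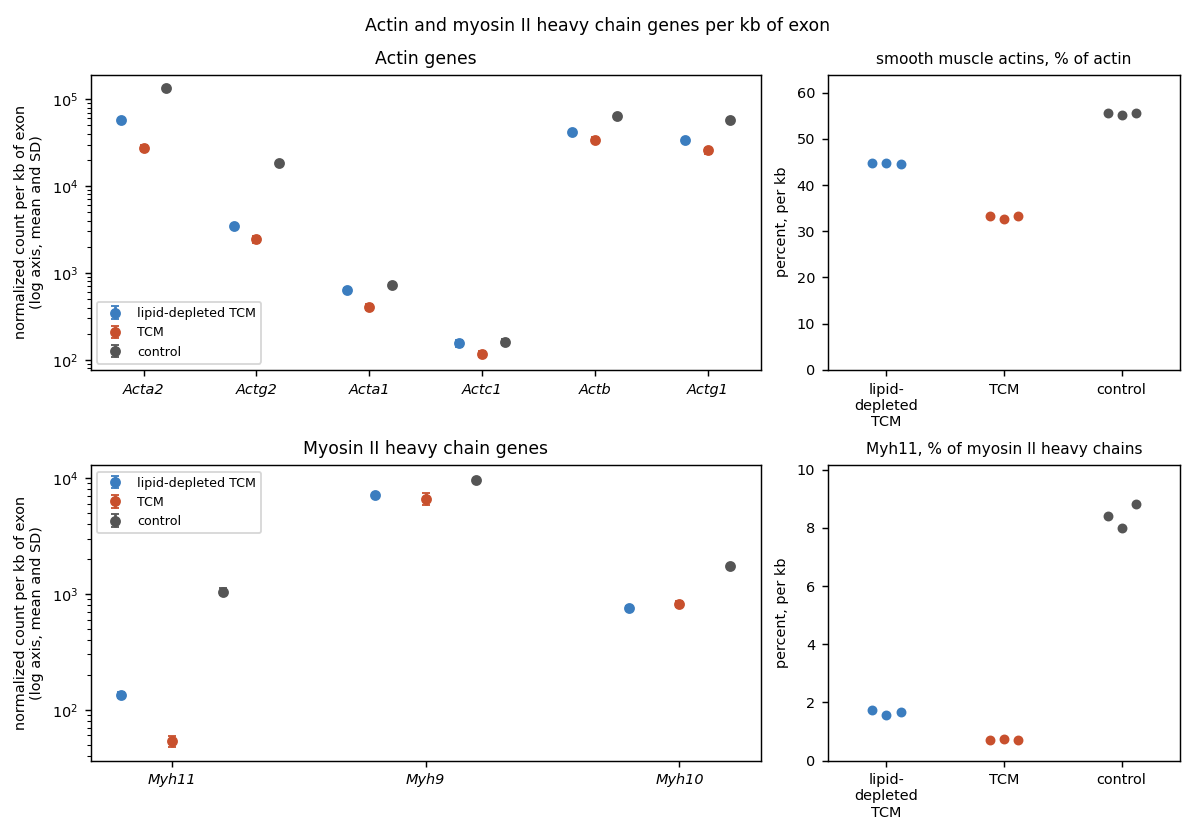
Left, normalized counts per kb of exon (log axis, mean and SD of 3 libraries) of the actin and myosin II heavy chain genes in the 3 groups, Myh14 being left out for its low counts. Right, the share per library of Acta2 with Actg2 among actins (top) and of Myh11 among myosin II heavy chains (bottom), which is lowest in TCM and highest in control in both.

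The smooth muscle myosin heavy chain and the kinase that switches myosin on had the largest falls of the set in TCM against control. Myh11, smooth muscle myosin heavy chain (ENSMUSG00000018830.10, chromosome 16, 14194535 to 14291372, minus strand), had 1066, 955 and 1031 normalized counts in lipid-depleted TCM, 355, 438 and 429 in TCM, and 7794, 7511 and 8594 in control. Control libraries lay far above the rest, since no library of the other groups passed 1066. Myh11 was 19.6-fold lower in TCM than in control (log2 -4.29, SE 0.08, limma adjusted p = 6.7e-13) and higher in lipid-depleted TCM than in TCM by 1.32 on the log2 scale (adjusted p = 8.0e-08). Against control it stayed 7.82-fold lower in lipid-depleted TCM (adjusted p = 1.6e-11). Mylk, the kinase that phosphorylates the myosin regulatory light chain (ENSMUSG00000022836.11, chromosome 16, 34745210 to 35002420, plus strand), had 899, 845 and 877 normalized counts in lipid-depleted TCM, 509, 449 and 449 in TCM, and 7333, 7104 and 7328 in control. Its log2 changes in the 3 comparisons were -3.95, 0.90 and -3.05 (limma adjusted p = 1.1e-13, 1.3e-07 and 2.3e-12). The light chain itself, Myl9, the regulatory chain of smooth muscle and non-muscle myosin, had 16567, 16550.3 and 17577 normalized counts in lipid-depleted TCM, 8859, 8714 and 10322 in TCM, and 35013, 35024 and 34656 in control, and the log2 changes were -1.91, 0.87 and -1.05 in the same order (limma adjusted p = 3.4e-11, 1.5e-07 and 8.1e-09). Neither Mylk nor Myl9 overlapped between groups.

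Non-muscle myosin showed smaller differences. Myh9, the heavy chain of non-muscle myosin IIA, had 92036, 92420.0 and 92952 normalized counts in lipid-depleted TCM, 73799, 90435 and 92999.7 in TCM, and 122205, 125109.8 and 127751 in control. Lipid-depleted TCM and TCM overlapped, with TCM replicate 1 lowest. Myh9 fell by 0.55 on the log2 scale in TCM against control (limma adjusted p = 2.4e-05) and was not called between lipid-depleted TCM and TCM (log2 0.12, 95% interval -0.04 to 0.27, adjusted p = 0.21). Myh10, the heavy chain of non-muscle myosin IIB, which is outside the 37 genes, was at 7958 ± 314, 8528 ± 482 and 18241 ± 486 normalized counts in lipid-depleted TCM, TCM and control (SD, n = 3). Per kb of exon, Myh11 made up 1.74, 1.57 and 1.68% of the 4 myosin II heavy chain genes in lipid-depleted TCM, 0.715, 0.728 and 0.701% in TCM and 8.40, 7.99 and 8.83% in control. The differences of -7.69, 0.949 and -6.74 percentage points in the 3 comparisons each had the smallest two-sided exact permutation p of 0.1. Myl6, the essential light chain, changed by -0.86, 0.37 and -0.49 on the log2 scale in these comparisons, all called. Phosphorylation is undone by a phosphatase, on which the next gene acts. Ppp1r14a, which inhibits the myosin phosphatase, had 551, 575 and 564 normalized counts in lipid-depleted TCM, 247, 465 and 453 in TCM, and 905, 887 and 891 in control. TCM replicate 1 lay well below the other TCM libraries, and the groups did not overlap. The rise in lipid-depleted TCM (log2 0.59, limma adjusted p = 0.018) was lost without lipid-depleted TCM replicate 2 (adjusted p = 0.055), and without TCM replicate 1 it was 0.293 on the log2 scale, still called.

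Among the calponin family, which binds along actin filaments and restrains myosin, the smooth muscle gene had the largest differences. Cnn1, calponin 1 (ENSMUSG00000001349.5, chromosome 9, 22099216 to 22109630, plus strand), had 2132, 2071 and 2310.0 normalized counts in lipid-depleted TCM, 1223, 1459 and 1625 in TCM, and 20645, 21284 and 21036 in control. It was 14.7-fold lower in TCM than in control and 9.67-fold lower in lipid-depleted TCM than in control, with a 1.52-fold rise between lipid-depleted TCM and TCM (limma adjusted p = 1.5e-12, 8.5e-12 and 7.3e-05). Every control library was several times above every library of the other groups. Cnn2 and Cnn3, the more widely expressed calponins, changed by -1.32 and -0.93 in TCM against control, and by 0.48 and 0.15 in lipid-depleted TCM against TCM, all called, although the last was lost without lipid-depleted TCM replicate 1 or 3 and with no filter on low values (limma adjusted p = 0.0942, 0.0793 and 0.0505), and was 0.0930 without TCM replicate 1. Tagln, transgelin, a calponin-related early marker of smooth muscle, had 50629, 50904 and 53960.4 normalized counts in lipid-depleted TCM, 25329, 24754 and 29783 in TCM, and 114142, 116125 and 115045 in control. The groups did not overlap, and the log2 changes were -2.12, 0.97 and -1.15 in the 3 comparisons (limma adjusted p = 2.4e-11, 9.8e-08 and 6.0e-09). Cald1, caldesmon, which inhibits the myosin ATPase on actin, had log2 changes of -0.21, 0.02 and -0.19 in those comparisons. The first and the last were called, but neither when libraries were scaled to the same total (adjusted p = 0.369 and 0.496).

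Tropomyosins, which lie along the actin groove, separated by gene. Tpm1 had 33160.4, 30370.4 and 33459 normalized counts in lipid-depleted TCM, 18189, 20482 and 20639 in TCM, and 61715, 60572 and 64129 in control. Tpm2 had 15277, 15014 and 15559 normalized counts in lipid-depleted TCM, 12407, 15032 and 14605 in TCM, and 35639, 35380.2 and 34136 in control. Tpm1 lay in between in lipid-depleted TCM with no overlap, whereas the Tpm2 libraries of lipid-depleted TCM and TCM overlapped. Tpm1 rose in lipid-depleted TCM against TCM (log2 0.71, limma adjusted p = 6.6e-07), while Tpm2 was not called (log2 0.13, 95% interval -0.003 to 0.26, adjusted p = 0.1), nor was Tpm4 (log2 -0.10, 95% interval -0.20 to 0.004). Without TCM replicate 1, Tpm4 was called lower in lipid-depleted TCM than in TCM (limma adjusted p = 0.0066), and without TCM replicate 2, Tpm2 was called higher (adjusted p = 0.0246). In TCM against control Tpm1, Tpm2 and Tpm4 fell by 1.65, 1.33 and 0.56 on the log2 scale. Per kb of exon in control, Tpm4 stood at 33893 normalized counts, Tpm2 at 12049 and Tpm1 at 9582. The merged exons were 2203 bases long for Tpm4, 2909 for Tpm2 and 6485 for Tpm1. Without division by length the order was Tpm4 (74666), Tpm1 (62139) and Tpm2 (35052). The order of Tpm1 and Tpm2 therefore rests on the length used. Lmod1, leiomodin 1, which starts new actin filaments in smooth muscle, had 3808, 3532 and 3772 normalized counts in lipid-depleted TCM, 2988, 3398 and 3479 in TCM, and 11626, 11646 and 11751 in control. Its control libraries stood apart, and the others lay close together without overlap. The fall of Lmod1 in TCM against control was 3.56-fold (limma adjusted p = 3.9e-11), against a rise of 1.13-fold in lipid-depleted TCM over TCM (adjusted p = 0.024) that was lost without lipid-depleted TCM replicate 1 or 3 (adjusted p = 0.0861 and 0.0843). On the log2 scale that rise was 0.17, and 0.106 without TCM replicate 1.

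Proteins that bundle and anchor filaments followed the same fall in TCM, to different degrees. Flna, filamin A, which crosslinks actin into networks, had 138774, 134891 and 139293 normalized counts in lipid-depleted TCM, 115231, 114073 and 123145 in TCM, and 248759.8, 246141 and 262586 in control. The groups did not overlap. Flna fell by 1.10 in TCM against control and rose by 0.23 in lipid-depleted TCM against TCM on the log2 scale (limma adjusted p = 8.3e-10 and 0.0018). Actn1 and Actn4, the non-muscle alpha-actinins, changed by -1.26 and -1.07 in the first comparison and by 0.34 and 0.15 in the second. The Actn4 rise was lost without lipid-depleted TCM replicate 2 or 3, without TCM replicate 1, where it was 0.0891, and with no filter on low values (limma adjusted p = 0.0816, 0.104, 0.0561 and 0.0614). Palld, palladin, a scaffold of actin bundles, changed by -1.91 and 0.78, and Synpo2, synaptopodin 2, an actin-binding protein of muscle, by -1.75 and 0.47, all called. Smtn, smoothelin, a marker of contractile smooth muscle, had 1634, 1669.8 and 1735 normalized counts in lipid-depleted TCM, 1429, 1943 and 2096 in TCM, and 4977, 5228 and 4956 in control. Lipid-depleted TCM and TCM overlapped, and Smtn was not called between them (log2 -0.10, 95% interval -0.33 to 0.13), although it had fallen by 1.49 in TCM against control (limma adjusted p = 9.3e-08). Without TCM replicate 1, Smtn was lower in lipid-depleted TCM than in TCM (adjusted p = 0.000406).

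Des was one of the 2 genes of the set called higher in TCM than in control. It encodes desmin, the intermediate filament protein of muscle, and had 265, 346 and 273 normalized counts in lipid-depleted TCM, 203, 305 and 244 in TCM, and 205, 173 and 149.8 in control. These are low values, and TCM and control libraries overlapped, at 203 and 205 normalized counts. Des was higher in lipid-depleted TCM than in control (log2 0.74, SE 0.16, limma adjusted p = 0.0016). In TCM against control it was higher by 0.50 (adjusted p = 0.017), a call lost without TCM replicate 2 (adjusted p = 0.0734) or control replicate 3 (adjusted p = 0.0789).

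**Figure D3:**
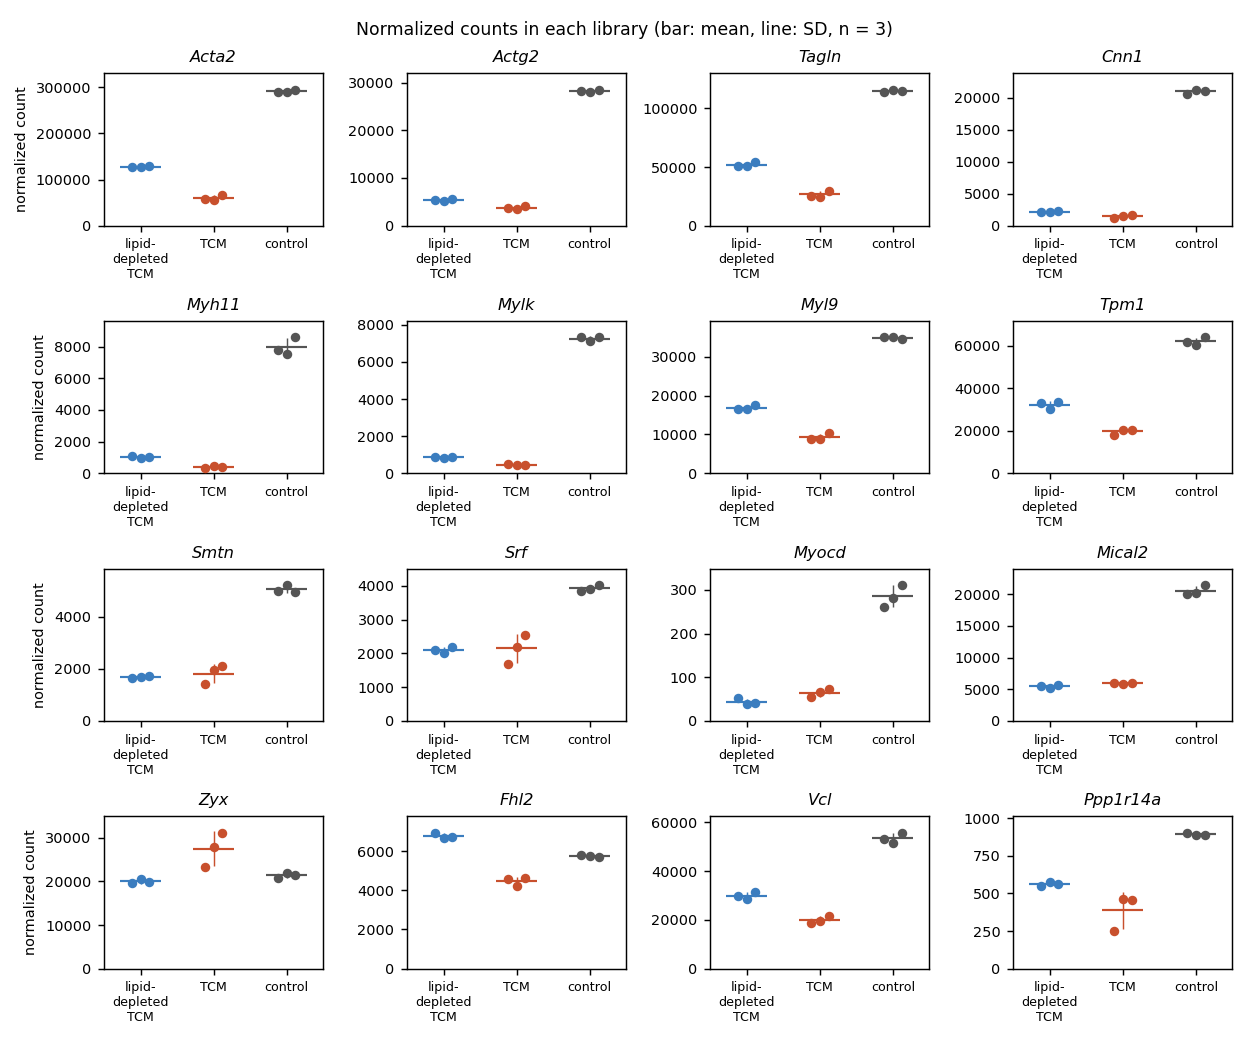
Normalized counts (y axis, from 0) of 16 genes in each library, with the mean (bar) and SD (line) of 3 libraries per group. Acta2, Tagln, Myl9, Tpm1 and Vcl stand between TCM and control in lipid-depleted TCM, Smtn, Srf and Mical2 stay near TCM, Zyx is highest in TCM, and Fhl2 is highest in lipid-depleted TCM.

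At adhesion plaques most genes fell in TCM, but Zyx rose. Vcl, vinculin, which couples talin to actin, had 29921, 28373 and 31387 normalized counts in lipid-depleted TCM, 18549, 19514 and 21588 in TCM, and 53069.6, 51642 and 55866 in control. The groups did not overlap, and Vcl fell by 1.43 on the log2 scale in TCM against control (limma adjusted p = 5.1e-10). Tln1, talin 1, which activates integrins, changed by -1.11 in TCM against control and was not called in lipid-depleted TCM against TCM (log2 0.08, 95% interval -0.04 to 0.21), whereas Vcl rose there by 0.59 (limma adjusted p = 5.1e-06). Lpp, a LIM protein of the zyxin family, changed by -1.06 and 0.35. Zyx, zyxin, which gathers on actin under tension, had 19533, 20655 and 19855 normalized counts in lipid-depleted TCM, 23245, 27919 and 31214 in TCM, and 20869, 21892 and 21387 in control. All 3 TCM libraries were above the others, with TCM replicate 1 nearest to them, and the lipid-depleted TCM libraries lay just below those of control. Zyx was 1.28-fold higher in TCM than in control (log2 0.35, SE 0.08, limma adjusted p = 0.0022) and 1.36-fold lower in lipid-depleted TCM than in TCM (adjusted p = 0.00065). Between lipid-depleted TCM and control it was not called (log2 -0.10, 95% interval -0.27 to 0.08, adjusted p = 0.33), and there the sign turned when libraries were scaled to the same total. Some of these genes share exon bases with a neighbour on the opposite strand, and the strand setting of the counting is not given in the sources used here. Vcl shares 2090 bases with Ap3m1, Tln1 360 with Creb3, Zyx 236 with Epha1 and Tagln 1241 with the antisense gene Gm48529, partners that averaged 4026, 3206, 223 and 272 normalized counts over all 9 libraries.

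The LIM domain proteins, small adaptors of actin and of the nucleus, included Fhl2, which with Des was called higher in lipid-depleted TCM than in control. Csrp2, a cysteine- and glycine-rich LIM protein of smooth muscle, had 2584, 2430.2 and 2542 normalized counts in lipid-depleted TCM, 1223, 1255 and 1397 in TCM, and 7131, 7316 and 7461 in control. The groups did not overlap. Csrp2 was 5.66-fold lower in TCM than in control and 1.95-fold higher in lipid-depleted TCM than in TCM (limma adjusted p = 1.9e-12 and 3.2e-08). Its relative Csrp1 changed by -1.72 and 0.40 on the log2 scale in these comparisons, Fhl1 by -2.38 and 0.83, and all 4 changes were called. Fhl2, a cofactor that binds SRF and other transcription factors, had 6957, 6681 and 6741 normalized counts in lipid-depleted TCM, 4564, 4202 and 4634 in TCM, and 5816, 5742 and 5698 in control. Every group stood apart, with lipid-depleted TCM highest. Fhl2 was lower in TCM than in control by a log2 change of -0.37, higher in lipid-depleted TCM than in TCM by 0.61, and higher in lipid-depleted TCM than in control by 0.24 (limma adjusted p = 1.5e-05, 3.8e-07 and 0.00052). Pdlim7, a PDZ and LIM protein of stress fibers, fell by 0.78 in TCM against control and was not called in lipid-depleted TCM against TCM (log2 0.01, 95% interval -0.23 to 0.26), except without TCM replicate 1, where it was lower (adjusted p = 0.00892). Pdlim3, the alpha-actinin-associated LIM protein, had 54.4 ± 9.41, 45.2 ± 15.1 and 51.7 ± 9.50 normalized counts in lipid-depleted TCM, TCM and control (SD, n = 3) and was called in no comparison (log2 0.30, 95% interval -0.23 to 0.83, in lipid-depleted TCM against TCM).

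None of the 3 regulators of the set was called higher in lipid-depleted TCM than in TCM. Srf, the serum response factor itself (ENSMUSG00000015605.6, chromosome 17, 46548329 to 46556175, minus strand), had 2097, 2026 and 2185 normalized counts in lipid-depleted TCM, 1690.2, 2201 and 2555 in TCM, and 3842, 3899 and 4030.0 in control. Its TCM libraries spread on both sides of those of lipid-depleted TCM. Srf fell by 0.89 in TCM against control (SE 0.11, limma adjusted p = 1.5e-05) and by 0.90 in lipid-depleted TCM against control, and it was not called in lipid-depleted TCM against TCM (log2 -0.01, 95% interval -0.25 to 0.23, adjusted p = 0.94). Without TCM replicate 1 it was lower in lipid-depleted TCM than in TCM (adjusted p = 0.0233). Myocd, myocardin, the SRF cofactor of smooth and cardiac muscle, had 52.1, 38.5 and 40.0 normalized counts in lipid-depleted TCM, 55.1, 65.3 and 72.2 in TCM, and 261, 283 and 312 in control. These low values did not overlap between groups, and lipid-depleted TCM was lowest. Myocd was 4.40-fold lower in TCM than in control and 6.46-fold lower in lipid-depleted TCM than in control (limma adjusted p = 1.6e-07 and 1.7e-08). Its fall between lipid-depleted TCM and TCM (log2 -0.55, SE 0.16, adjusted p = 0.014) was lost without lipid-depleted TCM replicate 2 (adjusted p = 0.0557), without its replicate 3 (adjusted p = 0.0512) and without TCM replicate 3 (adjusted p = 0.0527).

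Mical2, an enzyme that oxidizes actin in the nucleus and thereby frees MRTF to act with SRF, had 5592, 5265 and 5618 normalized counts in lipid-depleted TCM, 5979, 5895 and 6052 in TCM, and 19996, 20148 and 21469.9 in control. Control libraries stood far above all others, and every lipid-depleted TCM library was below every TCM library. Mical2 fell by 1.78 on the log2 scale in TCM against control (limma adjusted p = 4.7e-12) and by 0.12 in lipid-depleted TCM against TCM (adjusted p = 0.035), and the second call was lost without any 1 of the 3 lipid-depleted TCM libraries, TCM replicate 3 or control replicate 1 or 2, and with no filter on low values (limma adjusted p of 0.0519 to 0.15). The genes of MRTF-A and MRTF-B, outside the set, were also lower in TCM. Mrtfa was at 2459 ± 55.7, 2514 ± 308 and 4369 ± 49.9 normalized counts and Mrtfb at 2383 ± 111, 2360.2 ± 213 and 2945 ± 176 in lipid-depleted TCM, TCM and control (SD, n = 3). Both were lower in TCM than in control (log2 -0.80 and -0.32, limma adjusted p = 8.9e-07 and 0.0013) and neither was called in lipid-depleted TCM against TCM (log2 -0.02 and 0.02, SE 0.07 and 0.07). Without TCM replicate 1 Mrtfa was lower in lipid-depleted TCM than in TCM (adjusted p = 0.0162). Mrtfa, Mrtfb, Actb, Actg1 and Myh10 were chosen for mention after their values were seen. Of the genes with the CArG boxes shown, Acta2, Cnn2, Fhl1, Fhl2, Myl6, Myl9 and Vcl rose in lipid-depleted TCM against TCM, and Srf and Pdlim3 were not called. In that comparison 24 of the 37 genes of the set rose, and 22.7% of all genes were called higher. Whether the boxes bear on these changes was not tested.

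Genes of the same apparatus outside the set were counted in 6 lists. In each the called genes with the largest rise and fall are given, among those averaging at least 50 normalized counts in the higher group. The counts stand beside 29.5% of all genes called higher and 31% lower in TCM against control. In lipid-depleted TCM against TCM these shares were 22.7% and 22.5%. Smooth muscle genes were mostly called in the direction of the set in TCM against control, with 20 of 22 lower and 2 not called (median log2 -0.98). In lipid-depleted TCM against TCM they divided into 12 higher and 4 lower of 22 (median log2 0.27). Pcp4l1, which encodes a short peptide, was at 16.5 ± 8.25, 43.8 ± 11.6 and 1215 ± 11.2 normalized counts in lipid-depleted TCM, TCM and control (SD, n = 3), so its control level stood far above both. Pgm5, an adhesion-plaque protein of muscle, was at 766 ± 14.0, 129 ± 4.97 and 309 ± 15.0 in that order, and stood above control in lipid-depleted TCM (log2 1.31, limma adjusted p = 2.1e-08). Filip1l, named for its likeness to a filamin-binding protein, fell by 0.81 between lipid-depleted TCM and TCM (log2, limma adjusted p = 6.2e-06).

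Focal adhesion and LIM proteins had 4 higher and 23 lower of 31 (median log2 -0.64) in TCM against control and 16 higher and 2 lower of 31 (median log2 0.18) in lipid-depleted TCM against TCM. Crip1, a small LIM protein, was at 427 ± 19.7, 214 ± 29.7 and 1084 ± 28.4 normalized counts in lipid-depleted TCM, TCM and control (SD, n = 3), while Tns2, tensin 2, rose by 0.69 in TCM against control. Lims2, a LIM protein of the integrin-linked kinase complex, rose by 1.38 and Fhl3, a relative of Fhl1 and Fhl2, fell by 0.35 in lipid-depleted TCM against TCM, all called. Actin filament turnover genes had 1 higher and 27 lower of 32 (median log2 -0.29) in TCM against control and 13 higher and 7 lower of 32 (median log2 0.07) in lipid-depleted TCM against TCM. Of these, Dstn, destrin, which severs filaments, fell by 1.21 and Pfn2, a profilin, rose by 0.44 in TCM against control. Fscn1, the bundling protein fascin, rose by 0.59 and Diaph3, a formin, fell by 1.22 in lipid-depleted TCM against TCM, all called.

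Non-muscle actin, myosin and tropomyosin genes had 2 higher and 10 lower of 15 (median log2 -0.51) in TCM against control and 8 higher and 1 lower of 15 (median log2 0.28) in lipid-depleted TCM against TCM. Myo1e, a single-headed myosin of membranes, was at 1039 ± 25.8, 631 ± 65.4 and 1750.2 ± 79.2 normalized counts in lipid-depleted TCM, TCM and control (SD, n = 3), and Tpm3, a tropomyosin, fell by 0.28 in lipid-depleted TCM against TCM. Myl12b, a regulatory light chain, was higher in TCM than in control by 0.82. That value is uncertain because reads can be split with its near copy Myl12a. The symbol Myl12b also matched 2 identifiers, of which the one with more counts was used. SRF cofactors and repressors had 5 higher and 9 lower of 17 (median log2 -0.14) in TCM against control and 2 higher and 3 lower of 17 (median log2 0.00) in lipid-depleted TCM against TCM. Hey2, a repressor downstream of Notch, had the largest change among them, with 82.6 ± 3.50, 14.6 ± 2.79 and 215 ± 29.9 normalized counts in lipid-depleted TCM, TCM and control, and Ybx1, which can repress Acta2, was higher in TCM than in control by 0.39 and lower in lipid-depleted TCM than in TCM by a log2 change of -0.66, both called. The rise of Ybx1 in TCM was 0.241 without TCM replicate 2.

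When every library was scaled to the same total, 10950 genes were called in TCM against control, 66.4% of them higher. The median over all genes shifted by 0.16 with this scaling. Under it the median of the SRF cofactor list in that comparison was 0.01, while the 37 genes still had 2 higher and 33 lower with a median of -1.17. Filament turnover genes then had 3 higher and 17 lower of 32 (median log2 -0.13), focal adhesion and LIM proteins 7 higher and 20 lower of 31 (median log2 -0.49), non-muscle actin, myosin and tropomyosin genes 5 higher and 9 lower of 15 (median log2 -0.36), and SRF cofactors and repressors 6 higher and 6 lower of 17 (median log2 0.01). With the deposited scaling, fast targets of SRF signaling were called in both directions, as were all genes tested. Of all genes, 29.5% were called higher and 31% lower in TCM against control, and 22.7% and 22.5% in lipid-depleted TCM against TCM. The 10 immediate SRF targets outside the set mix genes that serum and ERK signaling switch on through other SRF cofactors, such as Egr1, Egr2, Fos and Junb, with genes that MRTF drives, such as Ccn2. They had 5 higher and 3 lower of 10 (median log2 0.41) in TCM against control and 3 higher and 6 lower of 10 (median log2 -0.50) in lipid-depleted TCM against TCM. Egr1, an immediate-early transcription factor, was at 6564 ± 944, 14732 ± 3237 and 4674 ± 122 normalized counts in lipid-depleted TCM, TCM and control (SD, n = 3), and its relative Egr2 fell by 1.63 in lipid-depleted TCM against TCM (limma adjusted p = 0.0001). Ccn2, connective tissue growth factor, was at 9714 ± 1037, 4907 ± 1440.0 and 38106 ± 3291. Ccn2 fell in TCM against control and rose in lipid-depleted TCM against TCM (log2 -2.99 and 1.02, limma adjusted p = 4.4e-09 and 0.00017).

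**Figure D4:**
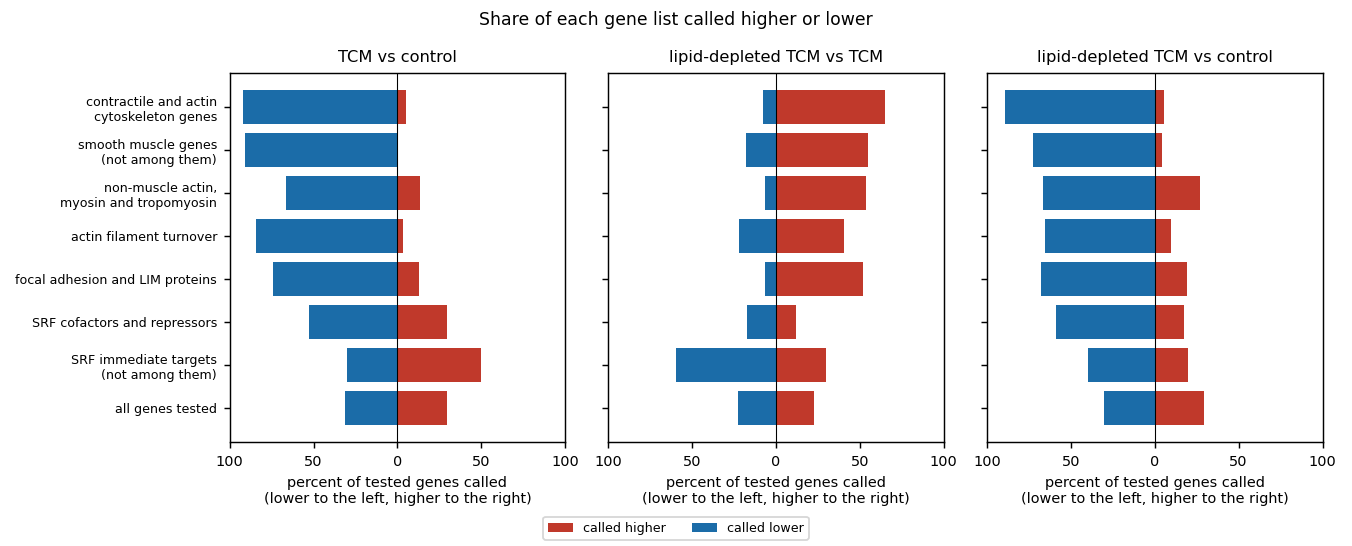
Percent of the tested genes of each list (y axis) called higher (to the right) or lower (to the left) in the 3 comparisons, with all 16950 genes tested in the bottom row. The contractile set and the other smooth muscle genes lean furthest to lower calls in TCM against control, while the 10 immediate SRF targets, a mixed list, have 5 higher and 3 lower there.

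The cell type label was checked against markers. All 10 fibroblast markers were measured, with a summed share of 2.88% to 3.00% of normalized counts in lipid-depleted TCM, 2.24% to 2.56% in TCM and 3.90% to 4.01% in control. Of the 10, 4 rose and 4 fell in TCM against control, and 6 rose and 2 fell in lipid-depleted TCM against TCM. Of all genes tested, 29.5% were called higher and 31% lower in the first comparison, and 22.7% and 22.5% in the second. Markers of pericytes, contractile cells of small vessels that share genes with this set, mostly moved with it. In TCM against control 7 of 9 tested pericyte markers fell and 2 rose, and in lipid-depleted TCM against TCM 6 rose and 3 were not called. Their summed normalized count was 17653 to 17869 in lipid-depleted TCM, 12702 to 14311 in TCM and 27895 to 28874 in control, and Higd1b had no read in any library. Log2 changes of the tested pericyte markers in TCM against control ran from -4.56 to 0.93 (median -1.19). In lipid-depleted TCM against control 7 were lower and 1 higher of 9. Rgs5, a defining pericyte marker, was at 101 ± 15.3, 33.3 ± 6.60 and 802 ± 50.5 in lipid-depleted TCM, TCM and control. It was chosen for mention after its values were seen. The part of such cells in the results was not tested. Skeletal muscle markers summed to 2234 to 2321, 1985 to 2689 and 1727 to 2010.0 in lipid-depleted TCM, TCM and control, so that TCM and control overlapped, as they did for cardiac markers. The markers of keratinocytes, endothelium, leukocytes, adipocytes, Schwann cells and melanocytes each summed to at most 1949.6 in any library. Those of melanocytes and melanoma summed to 1002 to 1121 in lipid-depleted TCM, 880 to 955 in TCM and 757 to 863 in control, without overlap. What this difference comes from was not tested. Mitochondrial genes, a sign of RNA quality, held 1.82% to 2.12% of normalized counts in lipid-depleted TCM, 2.67% to 3.14% in TCM and 1.77% to 1.85% in control. All 8 proliferation genes fell in TCM against control and again in lipid-depleted TCM against TCM, summing to 8132 to 9697, 23437 to 25428 and 42454 to 45229 in lipid-depleted TCM, TCM and control. The part of RNA quality and of proliferation in the results was not tested.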

How the data were processed

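RNA of mouse skin fibroblasts was extracted with a Qiagen RNeasy kit and made into stranded TruSeq libraries, per the labels' protocols. The submitters' processing notes name STAR (2.7.9a), Trim Galore (0.6.6), DESeq2, FastQC and the build mm10. Which counter, annotation and strand setting were used is not given in the sources used here. The deposited table holds signal values per gene that the authors had normalized. Every value became a whole read count within 0.01 when multiplied by 1 size factor per library (0.864 to 1.21), which makes the deposited values counts divided by DESeq2 size factors. Of 55401 gene identifiers, 55141 matched GENCODE M21, which gave coordinates and exon lengths. Recovered reads per library numbered 51015024 to 64965906.

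The main test was limma (3.58.1, R 4.3.3) with a trend on log2(normalized count + 1), fitting 3 group means to all 9 libraries, for the 16950 genes with at least 10 normalized counts in at least 3 libraries, with Benjamini-Hochberg adjustment over all of them. Fold changes understate low genes because of the pseudocount. Alternatives were pseudocounts of 0.5 and 5, no filter, a filter at 50, the same library total, TMM scaling, edgeR (4.0.16) quasi-likelihood and DESeq2 (1.42.0) on recovered counts, a replicate block, and leaving out each library. The count tests called 10232, 7744 and 10174 genes (edgeR) and 9922, 7504 and 9915 genes (DESeq2) in the 3 comparisons. Isoform shares used exact permutation tests. One gene list is not reported here. The members and lists were chosen with earlier results of these data known. Values per library are printed for 16 members listed by name, for the 5 members with the largest change in each comparison and for those called against the majority. They are also printed for Myh9 and Ppp1r14a, which were chosen outside this rule. Outside the set, the called gene with the largest rise and the largest fall per list is named for TCM against control and lipid-depleted TCM against TCM, if it averaged at least 50 in the higher group.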

Additional observations from a re-analysis of the deposited data

How the results depend on the processing

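Over 9 other ways of processing and the leaving out of each of the 9 libraries, the contractile genes kept their counts of calls in most settings. Genes called lower stayed at 33 to 34 in TCM against control and 32 to 33 in lipid-depleted TCM against control. With 1 library left out, genes called higher were 1 to 2 in TCM against control (1 where Des was lost), and in lipid-depleted TCM against TCM 21 to 25 were higher and 1 to 7 lower, the highest count of lower calls being without TCM replicate 1. Of all genes, 9090 to 10950 were called in TCM against control, 6211 to 8601 in lipid-depleted TCM against TCM and 9068 to 11072 in lipid-depleted TCM against control. As shares of normalized counts with no correction for length, the smooth muscle actins differed by -21.3, 11.2 and -10.2 percentage points and Myh11 by -4.83, 0.572 and -4.26 points in these comparisons.

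Of the alternatives for single genes of the set, 1956 kept direction and call, 24 lost the call, 4 gained it and 14 turned sign. Among named genes outside the set these numbers were 1271, 10, 4 and 11. With 1 library left out, the log2 changes that turned sign in lipid-depleted TCM against TCM ranged over -0.17 to 0.13 for Pdlim7, -0.17 to 0.12 for Srf, -0.013 to 0.073 for Cald1, -0.27 to 0.011 for Smtn, -0.10 to 0.043 for Tns2, -0.13 to 0.033 for Mrtfa and -0.036 to 0.088 for Mrtfb. In lipid-depleted TCM against control Pdlim3 ranged over -0.034 to 0.22, and in TCM against control Tpm3 over -0.11 to 0.054. Pdlim7 in lipid-depleted TCM against TCM also turned, to -0.013 with edgeR and -0.0088 with DESeq2. With every library scaled to the same total, Zyx turned to 0.053 in lipid-depleted TCM against control, and in TCM against control Tpm3 turned to 0.13. Tpm3 was 0.011 there with TMM scaling. The cause was not tested.

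No pairing of libraries by replicate number was seen. Deviations from the group means correlated by -0.025 to 0.027 between same-numbered libraries and by -0.070 to 0.084 between differently numbered ones. With 3 libraries per group this check cannot exclude pairing. With the replicate number as a block, 9972, 7328 and 9961 genes were called in the 3 comparisons, against 10248, 7664 and 10168 without it, and the counts of contractile genes called were the same. Depth limits Pdlim3 and Myocd most, the members that averaged under 100 normalized counts in a group.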
